A study of Mus musculus with 2 samples.

Results

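Within the fibroblast population that the authors named Fibro 1, cells of the mouse aorta were ordered by how much RNA of Wisp2 and Fmod they held. For each of the 1147 Fibro 1 cells, among 5451 cells in all, the UMIs (unique molecular identifiers, tags that count captured RNA molecules) of Wisp2 and Fmod were added and scaled to 10000 UMIs of the cell. Within each library, cells above the 60th percentile of this sum were taken as high (459 cells, 156 in library 1 and 303 in library 2), cells at or below the 40th percentile as low (459 cells, 156 and 303), and the 229 cells between as middle. The classes are ranges cut from a continuous measure and not cell types. The members were thus chosen by measured Wisp2 and Fmod UMIs, so their own levels are described without a test, and both were left out of the tests of other genes and of all CPM values (counts per 1000000 UMIs, summed over the cells of a class) other than their own.

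All cells came from 1 group: female C57/BL6 mice, wild type, 12 weeks old and fed chow. They were profiled as 2 droplet libraries (10x v2) that the labels call WT1 and WT3. The whole aorta was dissociated with enzymes after perivascular fat had been dissected away, and no cell type was selected. The labels do not say which library carries which number in the barcodes, so the libraries are called 1 and 2 here. A label does not say whether each library is a single aorta, so p-values cannot be read as a spread between mice. They measure how differences between classes and populations varied between these 2 libraries, pooled over all populations in the fit. The low cells held 734844 UMIs in library 1 and 1871657 in library 2, and the high cells 828601 and 1840713. A median low cell had 4310 and 6078 UMIs, and a median high cell 5005.5 and 5909. Mitochondrial UMIs made up 4.24% and 4.19% of the low cells' total and 4.43% and 4.61% of the high cells'. The libraries share 12 barcodes, 3 of them of Fibro 1 cells.

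Fibroblasts of the aorta lie mostly in the adventitia, the outer layer, where they make and remodel collagen and elastic matrix. Wisp2 (Ccn5) encodes a secreted CCN family protein that lacks the C-terminal domain of its relatives. Fmod encodes fibromodulin, a small leucine-rich proteoglycan that binds collagen and shapes its fibrils. The label was checked against fibroblast markers: all 15 were detected in both classes of both libraries, and their summed level was 66524 and 67191 CPM in low cells and 63074 and 76929 CPM in high cells.

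Upstream sequences are shown for Fmod, which helped choose the cells, and for Angptl7 and Cytl1, the higher gene with the largest log2 difference and the most abundant of the leading lower genes. Each is the 250 bases before the annotated start on the gene's own strand, from RefSeq (GRCm38.p6), at chr1:134037004-134037253 (plus strand), chr4:148500463-148500712 (minus strand) and chr5:37735269-37735518 (plus strand). Capitals mark the TATA-like letters TATNNAA. Wisp2 is named only.
Fmod: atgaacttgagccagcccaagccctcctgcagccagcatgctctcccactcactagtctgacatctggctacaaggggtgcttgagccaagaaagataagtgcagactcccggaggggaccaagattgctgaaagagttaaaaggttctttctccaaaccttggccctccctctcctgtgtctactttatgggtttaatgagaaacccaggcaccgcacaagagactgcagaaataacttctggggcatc
Angptl7: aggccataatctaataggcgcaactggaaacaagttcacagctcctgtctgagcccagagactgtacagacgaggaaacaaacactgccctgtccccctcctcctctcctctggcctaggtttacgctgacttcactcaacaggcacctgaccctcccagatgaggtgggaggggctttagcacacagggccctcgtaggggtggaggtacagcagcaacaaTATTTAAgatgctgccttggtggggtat
Cytl1: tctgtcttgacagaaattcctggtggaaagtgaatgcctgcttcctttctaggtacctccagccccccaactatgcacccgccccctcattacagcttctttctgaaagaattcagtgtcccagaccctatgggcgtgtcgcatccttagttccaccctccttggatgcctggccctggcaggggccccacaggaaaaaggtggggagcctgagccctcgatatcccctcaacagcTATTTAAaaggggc
The marked letters begin 28 bases before the start in Angptl7 and 14 bases before it in Cytl1. Searched first, on both strands, were TATAAA (the core of a TATA box), TGAGTCA (an AP-1 site), GGAATG (a TEAD core) and ACAAAG (a SOX and TCF core). TATNNAA, which can overlap the first of these, was added after the sequences had been read. TATNNAA was in 6 of 9 upstream sequences of the 8 matched genes among the 12 leading higher ones, in 2 of 8 of the 7 matched among the 12 leading lower ones, and in 29.0% of all 32851 sequences of that length. The shares for TATAAA were 4 of 9, 1 of 8 and 12.4%. GGAATG was in 3 of 9, 1 of 8 and 12.6%. ACAAAG was in 0 of 9, 3 of 8 and 16.5%, and TGAGTCA in 0 of 9, 0 of 8 and 4.46%. These are letter matches only.

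Wisp2 and Fmod varied strongly from cell to cell within Fibro 1. No Wisp2 UMI was found in 41.8% of cells of library 1 and 53.0% of library 2, and no Fmod UMI in 49.0% and 43.1%. Cells with both made up 34.4% and 31.8%, and cells with neither 25.1% and 27.9%. In Mono 1, a population with summed macrophage and leukocyte markers of 60102 and 53946 CPM that should lack both genes (median 3574 and 4421.5 UMIs per cell), 9.39% and 3.44% of cells held a Wisp2 UMI and 2.21% and 5.73% an Fmod UMI. Measured levels of the 2 genes went together only loosely. Spearman's rho over cells was 0.25 in library 1 (390 cells) and 0.23 in library 2 (757 cells), where both values of a cell share its depth. The part of uncaptured RNA in this low rho was not tested. The limits fell at 4.44 and 11.4 UMIs per 10000 in library 1 and at 2.93 and 7.24 in library 2. The cells next to the lower limit had 4.4405 and 4.4412 in library 1 and 2.9172 and 2.939 in library 2. Next to the upper limit they had 11.215 and 11.5687, and 7.235 and 7.2389. One UMI more or fewer would have moved 127 of 390 cells (32.6%) and 268 of 757 cells (35.4%) to another class.

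**Figure D1:**
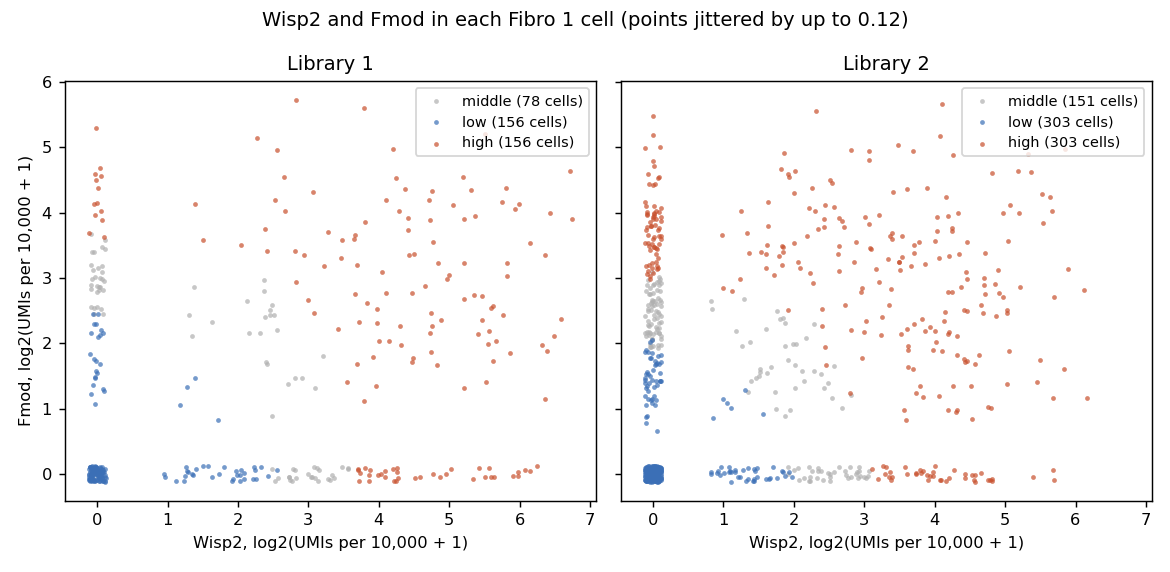
Wisp2 (horizontal) and Fmod (vertical) in each Fibro 1 cell, as log2 of UMIs per 10000 plus 1, with library 1 on the left and library 2 on the right. Each point is a cell coloured by class; high cells (156 and 303) lie along both axes as well as between them, so many are high through only 1 of the genes.

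As a description of the cut, Wisp2 was at 68.0 CPM in library 1 and 26.7 CPM in library 2 in low cells, 322 and 199 CPM in middle cells, and 2931 and 1356 CPM in high cells. Fmod was at 49.0 and 37.4 CPM in low cells, 411 and 301 CPM in middle cells, and 790 and 899 CPM in high cells. Wisp2 thus spanned a wider range than Fmod and was higher in library 1. When the UMIs of each cell were split at random into 2 equal parts and the classes were made from 1 part, the other part held Wisp2 at 129 and 76.4 CPM in low cells and 2708 and 1293 CPM in high cells. Fmod in that part was at 123 and 84.1 CPM in low cells and 697 and 785 CPM in high cells. When classes came from Wisp2 alone, Fmod was at 301 and 328 CPM in low cells and 614 and 609 CPM in high cells, a log2 difference of 0.97. When they came from Fmod alone, Wisp2 was at 696 and 284 CPM in low cells and 1908 and 829 CPM in high cells, a log2 difference of 1.54.

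Apart from the genes that chose them, RNA of Angptl7, Sfrp2, Lox and Eln was higher, and RNA of Cytl1, Prg4 and Serpine2 lower, in high cells than in low cells. Of 10865 genes tested with edgeR's quasi-likelihood test, 111 (1.02%) were higher and 54 (0.497%) lower in high cells at a Benjamini-Hochberg adjusted p under 0.05, 1.52% in either direction, and 975 had an unadjusted p under 0.05. The median log2 difference over all genes tested was 0.02. All 111 higher genes and 53 of the 54 lower ones had their direction in each library, and the sums of the classes did not overlap for 105 and 53. Over all genes tested both high sums lay above both low sums for 13.1% and below them for 19.8%. The called genes were picked for such a gap, so nothing is read from these counts or from a lack of overlap given for single genes below. The exception among the lower genes in direction was Tgfb1, singled out here for its values. With classes made from 1 part of the UMIs and the test run on the other, 92 and 49 genes were called, 71 and 31 of them the same genes. Calls were also recomputed with DESeq2, without the library term of the fit (the block), after thinning each cell to 2000 UMIs, with classes matched in depth, and without cells rich in other types' markers. With only library 1 in the Fibro 1 classes 28 and 11 genes were called, and with only library 2 83 and 44.

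**Figure D2:**
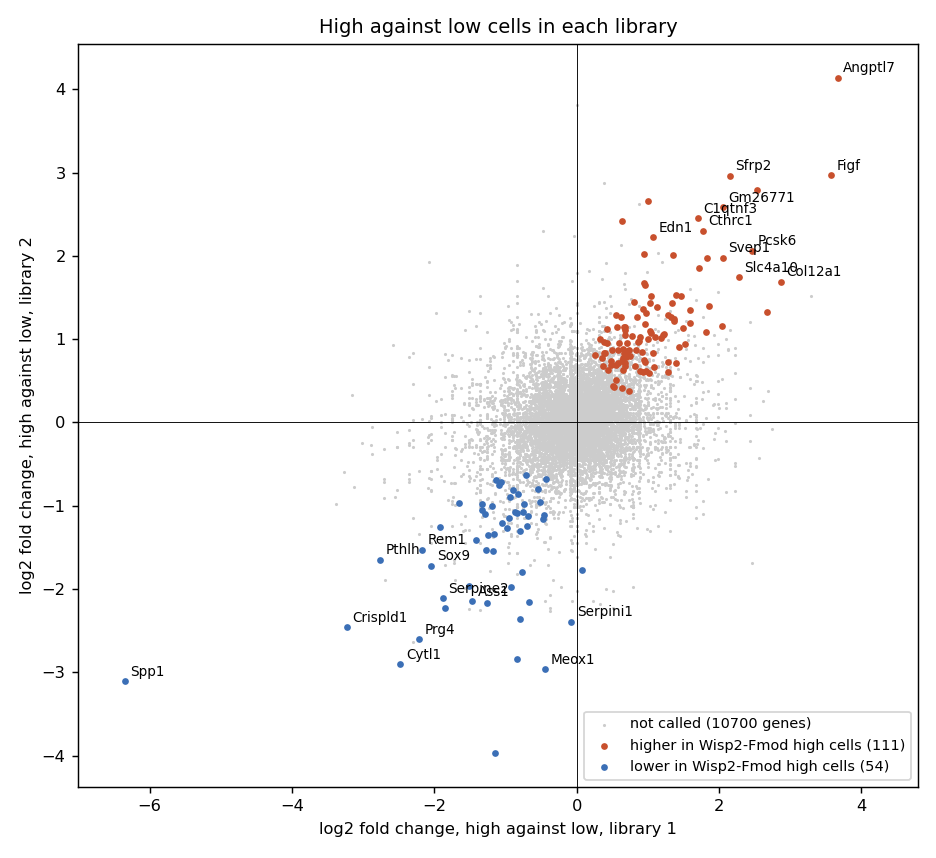
Log2 fold change of high against low cells in library 1 (horizontal) and library 2 (vertical) for every gene tested, 1 point per gene, with called genes coloured and the leading ones named. The 111 higher genes lie to the upper right, and 53 of the 54 lower genes to the lower left.

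Several of the 12 leading higher genes encode secreted proteins. The ± beside a log2 value is a standard error derived from the quasi-likelihood test. Angptl7, an angiopoietin-like secreted protein, was at 38.1 and 15.0 CPM in low cells and 481 and 270 CPM in high cells, a log2 difference of 4.05 ± 0.40 (adjusted p = 5.58e-08). Figf, the lymphatic growth factor VEGF-D, was at 69.4 and 50.8 CPM in low cells and 807 and 381 CPM in high cells (3.31 ± 0.19, adjusted p = 1.38e-13). Sfrp2, a secreted Wnt modulator and the most abundant of these, was at 1520 and 736 CPM in low cells and 6463 and 5359 CPM in high cells (2.56 ± 0.29, adjusted p = 3.76e-07). For all 3 both high sums lay above both low sums, as for 13.1% of all genes tested. Svep1, a large adhesive matrix protein, was at 102 and 75.9 CPM in low and 408 and 283 CPM in high cells (2.03 ± 0.17, adjusted p = 6.07e-10). Others of the 12 leading higher genes were C1qtnf3 (2.48), Col12a1, a fibril-associated collagen (2.38), Gm26771 (2.36), Pcsk6, a proprotein convertase (2.35), Edn1, the peptide endothelin 1 (2.34), Cthrc1 (2.31) and Slc4a10, a bicarbonate transporter (2.07), as log2 differences. Gm26771 overlaps Sfrp2 on the opposite strand in GENCODE, and since the strand used in counting is not given, its value is uncertain. Edn1 rests on 10 UMIs in low and 50 in high cells. Without library 2 the calls of C1qtnf3, Edn1 and Cthrc1 were lost (adjusted p = 0.926, 1 and 0.678). Calls were also lost with DESeq2 (adjusted p = 0.286 for Angptl7 and 0.323 for Edn1) and without the library block (0.0743 for C1qtnf3 and 0.246 for Edn1). More were lost after thinning (0.121 for C1qtnf3, 0.288 for Edn1 and 0.409 for Cthrc1), without cells rich in other types' markers (0.292 for Edn1), with split UMIs (0.0515 for Edn1 and 0.0684 for Slc4a10) and with depth-matched classes (0.0563 for Edn1).

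Collagen cross-linking and processing genes were called in 1 direction. Of 24 genes tested for fibrillar collagens and their processing, 5 were higher and 0 lower, with a median log2 difference of 0.54 against 0.02 over all genes. Over all genes tested 1.02% were higher and 0.497% lower, the shares to set beside this and the later lists of high against low cells. The lists were chosen with earlier results of these data known. Lox, the lysyl oxidase that cross-links collagen and elastin, was at 169 and 134 CPM in low, 283 and 265 CPM in middle and 414 and 507 CPM in high cells (1.75 ± 0.15, adjusted p = 5.98e-10). Its level therefore differed more between classes than between libraries. Loxl1, a relative that acts on elastin, was at 412 and 458 CPM in low and 694 and 683 CPM in high cells (0.74 ± 0.17, adjusted p = 0.0155). The others called were Col12a1, Plod2 and Adamts2, of which Plod2 hydroxylates collagen lysines and Adamts2 removes procollagen's N-terminal propeptide. The main fibril collagen Col1a1 was at 4241 and 5168 CPM in low and 5965 and 8071 CPM in high cells, which missed the threshold (0.66 ± 0.19, adjusted p = 0.0820), and Col3a1 differed by 0.33 ± 0.20 (adjusted p = 0.730). Loxl1 lost its call without library 1 (adjusted p = 0.294) and without library 2 (0.37). The call of Loxl1 was also lost without the library block (adjusted p = 0.154).

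Elastic fibre genes had 4 higher members and 0 lower of 17 tested (median 0.38). Eln, elastin itself, was at 1015 and 1121 CPM in low, 1708 and 1698 CPM in middle and 2925 and 2389 CPM in high cells (1.38 ± 0.25, adjusted p = 0.000676). Mfap4, a microfibril-associated protein, was at 1358 and 2048 CPM in low and 3899 and 4891 CPM in high cells (1.46 ± 0.27, adjusted p = 0.00124). Fbln5, which organizes elastin on microfibrils, was at 836 and 712 CPM in low and 1742 and 1746 CPM in high cells (1.27 ± 0.17, adjusted p = 9.4e-06). Both high sums lay above both low sums for each of these, as for 13.1% of all genes tested. Fbln7 was the other called member. Smooth muscle also makes elastin. Summed smooth muscle markers were 2534 and 1804 CPM in low and 2971 and 1742 CPM in high cells, with 0 of 14 called. The part of smooth muscle RNA in the Eln difference was not tested. Calls were lost with DESeq2 (adjusted p = 0.134 for Mfap4) and without the library block (0.0535 for Eln and 0.138 for Mfap4).

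Small leucine-rich proteoglycans, the family of Fmod, had 3 higher and 0 lower of 12 tested (median 0.13). Prelp, whose gene neighbours Fmod, was at 338 and 315 CPM in low and 738 and 595 CPM in high cells (1.09 ± 0.18, adjusted p = 0.000353). Omd, osteomodulin, was at 122 and 99.4 CPM in low and 224 and 241 CPM in high cells (1.20 ± 0.16, adjusted p = 9.4e-06), and Ogn, osteoglycin, its neighbour, at 1053 and 809 CPM in low and 1469 and 1856 CPM in high cells (0.96 ± 0.21, adjusted p = 0.00999). The abundant Dcn (0.13 ± 0.33), Bgn (0.13 ± 0.20) and Lum (-0.30 ± 0.22) had adjusted p of 0.984, 0.957 and 0.785. Omd and Ogn lost their calls without library 2 (adjusted p = 0.102 and 1). The call of Ogn was also lost with DESeq2 (adjusted p = 0.135), without the library block (0.244) and without cells rich in other types' markers (0.236).

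Of 14 matricellular genes tested, a list that holds the CCN family of Wisp2, thrombospondins and other such matrix proteins, 3 were higher and 1 lower (median 0.32). Nov (Ccn3) was at 28.6 and 36.3 CPM in low and 101 and 73.5 CPM in high cells (1.37 ± 0.22, adjusted p = 0.000185). Ctgf (Ccn2), a classic target of mechanical and TGF beta signalling, was at 578 and 366 CPM in low and 1044 and 616 CPM in high cells (0.88 ± 0.20, adjusted p = 0.00946). High and low sums of Ctgf did not overlap, but low cells of library 1 came close to high cells of library 2. Thbs2, an antiangiogenic matrix protein, differed by 1.90 ± 0.32, and Wisp1, the nearest relative in name, by 0.38 ± 0.26 (adjusted p = 0.777). The lower member was Spp1, osteopontin, which is neither a CCN nor a thrombospondin protein. Ctgf lost its call without library 1 (adjusted p = 0.184) and without library 2 (0.361), and Thbs2 without library 2 (0.899). Calls of this list were also lost with DESeq2 (adjusted p = 0.19 for Ctgf and 0.197 for Thbs2), without the library block (0.411 for Ctgf and 0.087 for Thbs2) and without cells rich in other types' markers (1 for Spp1).

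Secreted signals and their modulators were called in both directions. Bmp4, a BMP ligand, was at 133 and 126 CPM in low and 313 and 290 CPM in high cells (1.30 ± 0.19, adjusted p = 6.02e-05), and Chrdl1, a BMP antagonist, differed by 1.47 ± 0.22; of 16 BMP genes tested these 2 were higher and 0 lower. Of 16 Wnt ligands and regulators 2 were higher, Sfrp2 and Sfrp4 (1.32 ± 0.20), and 1 lower, Wnt2, which had only 24 UMIs in low and 3 in high cells. Of 13 genes for insulin-like growth factors and their binding proteins, Igf1 (0.93 ± 0.20) and Htra3 were higher. Igfbp5 was lower, at 909 and 1772 CPM in low and 388 and 654 CPM in high cells (-1.26 ± 0.23, adjusted p = 0.00104), with each library's low cells above both high sums. Of 18 TGF beta genes Cthrc1 was higher and the ligand Tgfb1 lower (-1.29 ± 0.28, adjusted p = 0.00663). Tgfb1 was at 31.3 CPM in low and 31.5 CPM in high cells of library 1, so its call rests on library 2, at 79.1 and 20.7 CPM; without library 2 the difference was 0.07. Without library 2 the calls of Chrdl1, Igf1 and Igfbp5 were lost (adjusted p = 0.913, 0.375 and 0.0629), and without library 1 that of Igf1 (0.0745). Wnt2 lost its call without either library (0.0908 without library 1 and 1 without library 2). Other calls were lost with DESeq2 (adjusted p = 0.286 for Bmp4, 0.0717 for Igf1 and 0.102 for Tgfb1) and without the library block (0.338 for Igf1, 0.204 for Igfbp5, 0.137 for Tgfb1 and 0.126 for Wnt2). More were lost after thinning (0.184 for Chrdl1, 0.681 for Tgfb1 and 0.926 for Wnt2), without cells rich in other types' markers (0.0812 for Chrdl1, 0.775 for Tgfb1 and 0.716 for Wnt2) and with split UMIs (0.284 for Wnt2).

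**Figure D3:**
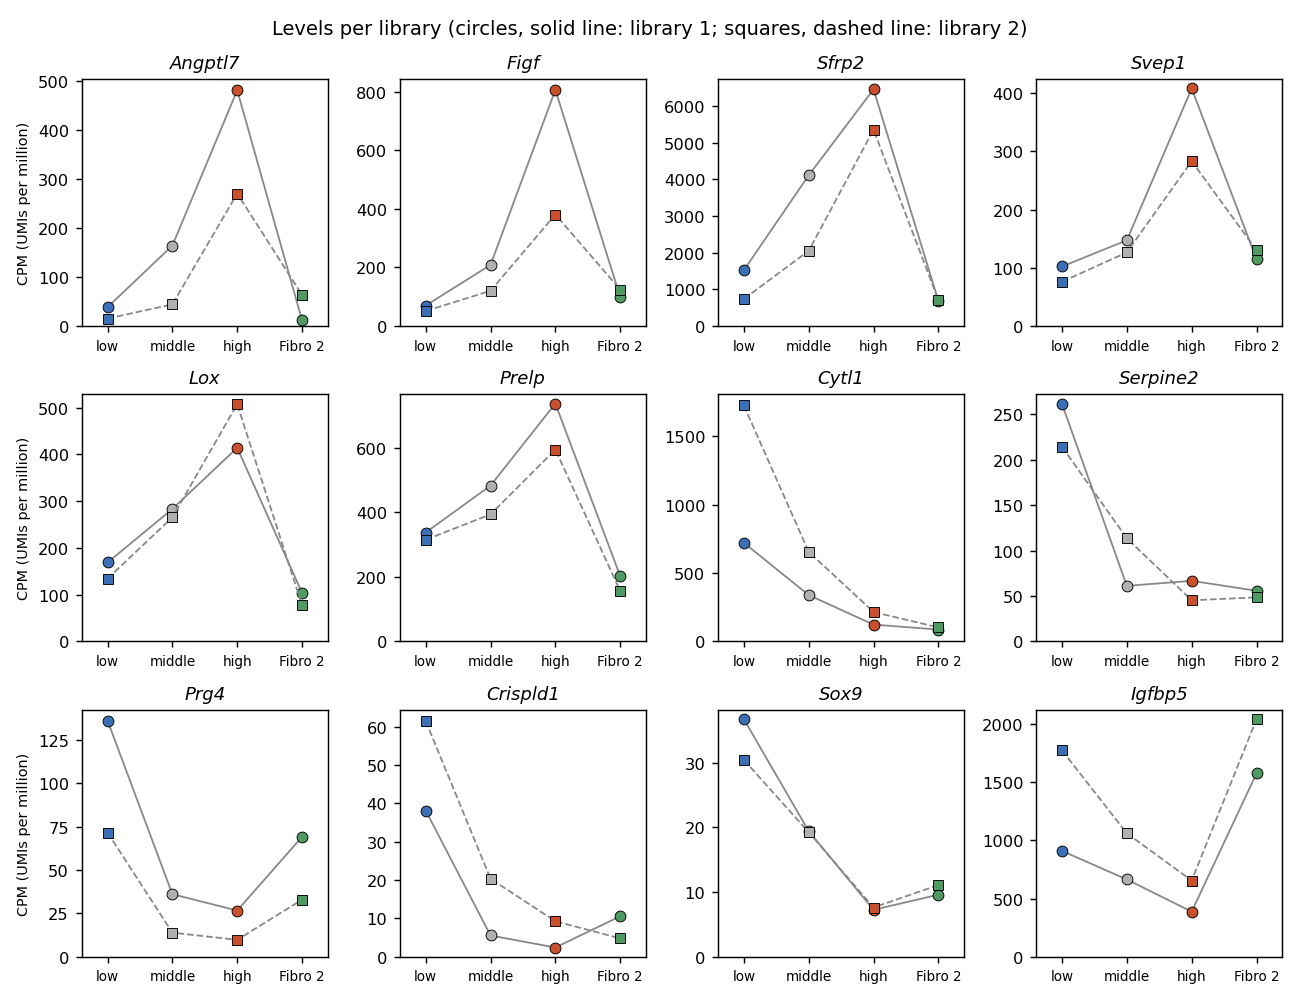
CPM of 12 genes in low, middle and high Fibro 1 cells and in the other fibroblast population, Fibro 2, with 1 point per library and a line joining a library's points. Angptl7, Figf, Sfrp2, Svep1, Lox and Prelp climb from low to high in both libraries, and Cytl1, Prg4, Crispld1, Sox9 and Igfbp5 descend; Serpine2 in library 1 is 61.1 CPM in middle and 66.6 CPM in high cells.

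Genes of the tendon and cartilage list were called in both directions. Of 12 tendon and cartilage matrix genes tested, 2 were higher (Angptl7 and Cilp, 1.08 ± 0.18) and 3 lower (median 0.06). Cytl1, a small secreted protein known from cartilage and endothelium, was at 721 and 1727 CPM in low and 122 and 215 CPM in high cells (-2.72 ± 0.23, adjusted p = 4.87e-10). Mono 1 cells, which should lack it, held 97.2 and 198 CPM of Cytl1, so its level in high cells was close to that background. Prg4, the lubricating proteoglycan of joints, was at 136 and 71.6 CPM in low and 26.6 and 9.80 CPM in high cells (-2.51 ± 0.28, adjusted p = 3.76e-07). Sox9, the transcription factor of chondrocytes, was at 36.7 and 30.5 CPM in low and 7.27 and 7.62 CPM in high cells (-2.02 ± 0.38, adjusted p = 0.00203). Both high sums lay below both low sums for each of the 3, as for 19.8% of all genes tested. Cilp lost its call without library 2 (adjusted p = 0.506) and Sox9 without library 1 (0.0884) and without library 2 (0.453). Calls ended without the library block (adjusted p = 0.106 for Cilp), after thinning (0.442 for Sox9) and without cells rich in other types' markers (0.319 for Cytl1 and 0.405 for Sox9). Cytl1 was itself among the endothelial markers that chose the cells left out, so nothing is read from the loss of its own call.

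Among the other leading lower genes, Serpine2, an inhibitor of thrombin and other serine proteases, was at 261 and 214 CPM in low and 66.6 and 45.2 CPM in high cells (-2.04 ± 0.25, adjusted p = 2.48e-06), the latter near its 51.5 and 56.8 CPM in Mono 1. Crispld1, a secreted cysteine-rich protein, was at 38.1 and 61.4 CPM in low and 2.42 and 9.26 CPM in high cells (-2.81 ± 0.39, adjusted p = 2.17e-05). Both were lower in both libraries without overlap, as were 19.8% of all genes tested. Pthlh, a parathyroid hormone-like ligand (-2.21), Serpini1 (-2.20), the homeobox factor Meox1 (-2.13), Rem1 (-1.99), Ass1, the argininosuccinate synthase (-1.92), and Spp1 (-4.71) were others of the 12, as log2 differences. Spp1 had 190 UMIs in low cells, 77 of them in 1 cell, and turned to 0.35 when cells rich in other types' markers were left out. Without library 2 the calls of Serpini1, Meox1, Rem1 and Ass1 were lost (adjusted p = 1, 1, 0.494 and 0.106), and without library 1 that of Rem1 (0.218). Other calls ended with DESeq2 (adjusted p = 0.051 for Ass1) and without the library block (0.184 for Serpini1 and 0.116 for Meox1). More were lost after thinning (0.316 for Serpini1, 0.0921 for Meox1 and 0.329 for Rem1), without cells rich in other types' markers (0.0908 for Pthlh, 0.854 for Serpini1, 0.282 for Meox1 and 0.475 for Rem1), with split UMIs (0.253 for Serpini1 and 0.438 for Rem1) and with depth-matched classes (0.0598 for Serpini1).

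Adventitial progenitor genes were called in both directions. Of 21 tested, 1 was higher (Anxa3, 1.16 ± 0.23) and 3 lower (Igfbp5, Cd248 and Wnt2), with a median of -0.25. Cd248, endosialin, was at 98.0 and 85.0 CPM in low and 36.3 and 37.6 CPM in high cells (-1.18 ± 0.20, adjusted p = 0.000388). Pi16, which marks a broadly found progenitor-type fibroblast, was at 1381 and 1314 CPM in low and 2067 and 1904 CPM in high cells (0.64 ± 0.22, adjusted p = 0.206), Cd34 at 548 and 606 CPM and 399 and 395 CPM (-0.46 ± 0.19, adjusted p = 0.393), and Ly6a differed by 0.07 ± 0.24. Low and high sums of Pi16 and Cd34 did not overlap, yet neither passed the test. Over all genes tested both high sums lay above both low sums for 13.1% and below them for 19.8%. In Fibro 2 Pi16 was at 6465 and 7133 CPM, above every Fibro 1 class. Anxa3 and Cd248 lost their calls without library 2 (adjusted p = 0.142 and 0.0629), and Anxa3 also without library 1 (0.0745). The call of Anxa3 was lost after thinning (adjusted p = 0.0961).

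Several pathways had no gene called in either direction between high and low cells: complement (13 tested, median 0.34), stromal chemokines and cytokines (18, 0.04), immediate early genes (18, -0.09), heat shock genes (14, 0.06), Hox genes (13, 0.49), cell cycle genes (15, 0.03) and respiratory chain genes (18, 0.05). Over all genes tested only 1.52% were called in either direction, so nothing is read from lists of this size without a call. The interferon list had 1 lower member of 15, Ifi27l2a (-1.32 ± 0.28; adjusted p = 0.00610, and 0.375 without library 2). Among 25 mesenchymal transcription factors Prrx1 was higher (0.80 ± 0.15; adjusted p = 0.00104, and 0.375 without library 2), and Meox1 and Sox9 were lower. They were also lost with DESeq2 (adjusted p = 0.388 for Prrx1), without the library block (0.0825 for Ifi27l2a and 0.201 for Prrx1) and without cells rich in other types' markers (0.454 for Ifi27l2a).

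Marker lists of other cell types were measured beside these calls. Leukocyte, pericyte and Schwann cell lists had 0 called genes of 14, 9 and 10. Over all genes tested 1.52% were called in either direction, so nothing is read from these counts. The pericyte list had a median log2 difference of -0.55, with sums of 958 and 1038 CPM in low and 753 and 970 CPM in high cells. Summed Schwann cell markers were 655 and 797 CPM in low and 618 and 696 CPM in high cells. Summed leukocyte markers were 679 and 216 CPM in low and 331 and 219 CPM in high cells. The endothelial list had Flt1 higher and Cytl1 lower of 14. Flt1 lost its call without library 1 (log2 difference 1.53) and without library 2 (2.05). In edgeR's test its call was also lost after thinning (adjusted p = 0.0942), without the library block (0.0519) and with split UMIs (0.117). The same held without cells rich in other types' markers (0.129, and 0.0917 with Cytl1 and Flt1 not counted) and without Cytl1-rich cells (0.0703). It was lost too with classes from Wisp2 alone (0.0873) or Fmod alone (0.0799). The endothelial list's sum was 938 and 2095 CPM in low and 316 and 550 CPM in high cells. Without Flt1 and Cytl1 it was 208 and 359 CPM against 161 and 310 CPM. Haemoglobin was at 6832 and 13756 CPM in low and 8762 and 2991 CPM in high cells, with 89.5% of that in low cells of library 2 in 5 cells. When the 17 haemoglobin-rich Fibro 1 cells were left out, 113 genes were higher and 56 lower. Leaving out Fibro 1 cells rich in smooth muscle, endothelial or leukocyte markers gave 58 and 19, and 86 and 38 when Cytl1 and Flt1 were not counted as endothelial. The part of these cells in each result was not tested further.

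The middle cells, which entered no contrast, lay between low and high in both libraries for 71 of the 111 higher genes (64.0%) and 28 of the 54 lower ones (51.9%), against 9.39% of all genes tested. The called genes were picked for a gap between the outer classes, so these shares are a description. Fibro 2 lay nearer to the low class for 82 of the 111 higher genes (73.9%) and 22 of the 54 lower genes (40.7%), with 51.4% of all genes tested nearer to it.

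The leading genes differed in how many cells carried them. Sfrp2 had a UMI in 86.5% and 87.5% of high cells and 48.7% and 44.6% of low cells, and after every cell was thinned to 2000 UMIs in 85.7% and 81.1% of high and 38.8% and 31.5% of low cells (33 low and 23 high cells were too shallow); 17.1% and 15.6% of Mono 1 cells held one. Lox had one in 71.8% and 77.6% of high cells and 42.3% and 37.0% of low cells (54.3% and 55.1% against 25.4% and 21.2% thinned; 3.87% and 5.73% in Mono 1). The top 10% of high cells by UMIs of a gene held 42.8% of Sfrp2, 35.1% of Lox and 30.2% of Prelp, but 82.1% of Angptl7. In low cells the corresponding top 10% held 80.4% of Cytl1, 86.8% of Prg4, 78.3% of Crispld1 and 84.5% of Sox9. Most UMIs of these 4 lower genes, and of Angptl7, thus came from few cells. These genes also differ in abundance, and its part in the shares was not tested.

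**Figure D4:**
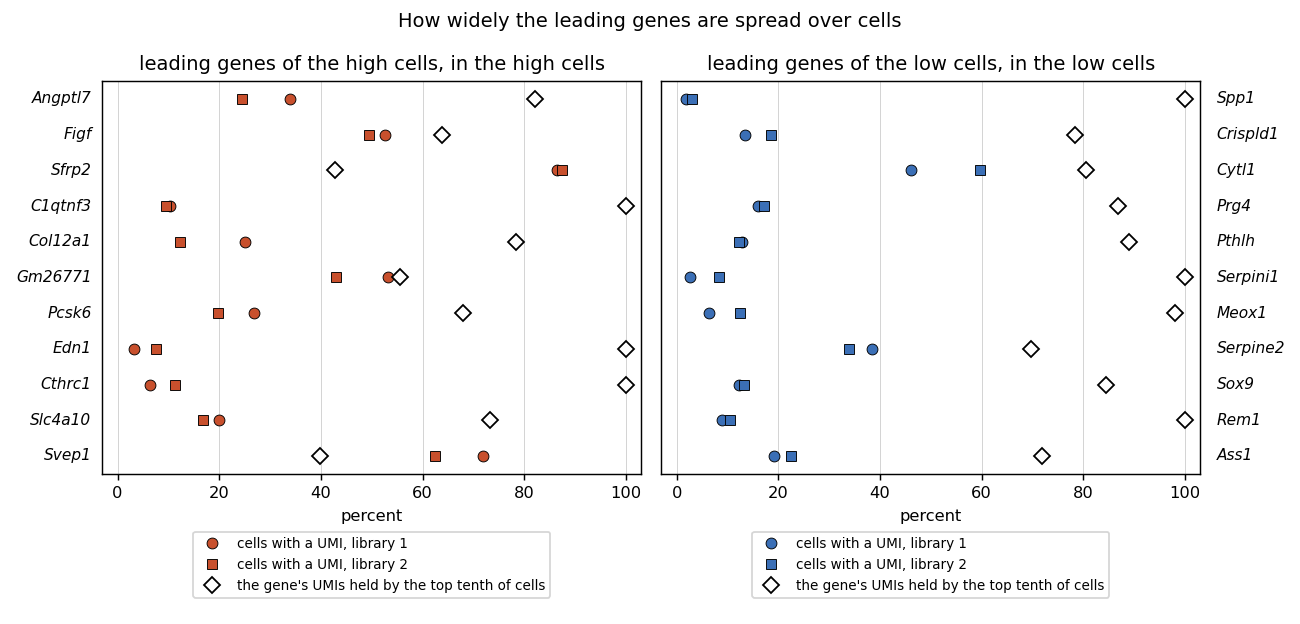
For leading higher genes in high cells (left) and leading lower genes in low cells (right), the percent of cells with a UMI in each library (circles and squares) and the percent of the gene's UMIs held by the top 10% of cells (open diamonds). Sfrp2 and Svep1 sit furthest right for cells with a UMI, whereas most lower genes have few cells and diamonds above 70%.

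Cells with at least 10 Cytl1 UMIs, a limit set after the values were seen, numbered 67 of 459 low cells (14.6%; 16 and 51), 15 of 229 middle cells and 8 of 459 high cells. In the low class they held 88.4% of Cytl1 UMIs. Of 10 other leading lower genes they carried a mean of 3.04 with a UMI, against 1.18 in the other low cells, and 38 of 67 against 57 of 392 held at least 3. Their median depth was 7007 UMIs against 5236.5, and the part of depth in that gap was not tested. When all 90 such Fibro 1 cells were left out before classes were made, 67 genes were higher and 21 lower. Angptl7 then differed by 4.04, Sfrp2 by 2.37, Lox by 1.51, Crispld1 by -2.85, Prg4 by -2.30 and Serpine2 by -1.52, all still called. Of the other named genes 13 lost their call, among them Sox9, Meox1, Rem1 and Tgfb1 (adjusted p = 0.0945, 0.131, 0.235 and 0.282). Cytl1 is counted in the 13 (adjusted p = 0.141), but its own UMIs chose the cells left out. Nothing is read from its loss.

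Since measured Wisp2 and Fmod went together only loosely, cells high in 1 and low in the other were compared as well. Fmod-leaning cells (187 in all, 52 and 135) had Fmod above its library's 60th percentile and Wisp2 at or below its 40th. Wisp2-leaning cells (142 in all, 55 and 87) had the reverse. Fmod-leaning cells thus held no Wisp2 UMI and Wisp2-leaning cells no Fmod UMI. The part of depth in this choice was not tested. These cells also sit in the classes above, so the comparisons are not independent. Of 10288 genes tested with the same edgeR test, 43 (0.418%) were higher and 31 (0.301%) lower in Fmod-leaning cells, 0.719% in either direction, and the median log2 difference was 0.02. All 74 had their direction in each library. Among the 10288 genes, both Fmod-leaning sums lay above both Wisp2-leaning sums for 13.97% and below them for 18.48%. The called genes were picked for such a gap, so nothing is read from a lack of overlap in the leaning cells. The Wisp2-leaning cells were shallower, with medians of 3663 and 4294 UMIs against 4333.5 and 5757, and after thinning to 2000 UMIs 18 genes were higher and 20 lower. Left with library 1 alone the counts were 11 and 10, and with library 2 alone 23 and 13.

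Eln and Mfap5 were higher in Wisp2-leaning cells, and elastic fibre genes were called in both directions. Of 17 elastic fibre genes 4 were lower and 1 higher in Fmod-leaning cells (median -0.52), against 0.301% and 0.418% of all genes tested. Eln was at 2799 and 2508 CPM in Wisp2-leaning and 1029 and 731 CPM in Fmod-leaning cells (-1.56 ± 0.25, adjusted p = 0.000483). Mfap5, a microfibril component, was at 2442 and 1965 CPM and 879 and 807 CPM (-1.32 ± 0.21, adjusted p = 0.000323). Fbln2 (-1.15 ± 0.24) and Fbln5 (-0.87 ± 0.18) were the others lower, and Fbln7 was higher (1.14 ± 0.21). In no library did a Fmod-leaning sum of Eln or Mfap5 reach a Wisp2-leaning one. Summed smooth muscle markers were 3241 and 1917 CPM in Wisp2-leaning and 2790 and 1541 CPM in Fmod-leaning cells, with 0 of 14 called, and summed endothelial markers 331 and 788 CPM against 471 and 1050 CPM, with 0 of 14 called. Summed fibroblast markers were 51978 and 67460 CPM against 70359 and 78483 CPM. The part of these in the differences was not tested. Without library 2 the calls of Eln, Fbln2 and Fbln5 were lost (adjusted p = 0.102, 0.357 and 0.269), and without library 1 those of Fbln2, Fbln5 and Fbln7 (0.429, 0.21 and 0.176). Further losses came with DESeq2 (adjusted p = 0.0811 for Fbln7), without the library block (0.0596 for Fbln2 and 0.129 for Fbln5) and after thinning (0.738 for Fbln2).

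Ctgf, Igf1, Tnfrsf11b and Pi16 were also higher in Wisp2-leaning cells. Among signalling lists, 2 genes were higher and 2 lower in Fmod-leaning cells of 12 insulin-like growth factor genes. The counts were 1 and 1 of 17 TGF beta genes, 1 and 1 of 14 Wnt genes, and 1 and 0 of 16 BMP genes. Over all genes tested 0.418% were higher and 0.301% lower. Ctgf was at 1283 and 831 CPM in Wisp2-leaning and 467 and 269 CPM in Fmod-leaning cells (-1.49 ± 0.22, adjusted p = 0.000168). Igf1 was at 2266 and 1562 CPM against 986 and 620 CPM (-1.22 ± 0.21, adjusted p = 0.000776), and Tnfrsf11b, the decoy receptor osteoprotegerin, at 172 and 128 CPM against 34.3 and 22.3 CPM (-2.39 ± 0.38, adjusted p = 0.000323). All 3 were higher in Wisp2-leaning cells of each library without overlap. Pi16 was at 2537 and 2374 CPM against 1063 and 933 CPM (-1.25 ± 0.24, adjusted p = 0.00279). Without library 2 the calls of Igf1, Tnfrsf11b and Pi16 were lost (adjusted p = 0.118, 0.118 and 0.136). Calls were also lost with DESeq2 (adjusted p = 0.112 for Pi16) and without the library block (0.148 for Igf1 and 0.248 for Pi16).

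Fmod-leaning cells were higher in a chemokine, a steroid enzyme and a nuclear receptor. Cxcl12, the stromal chemokine that binds CXCR4, was at 391 and 474 CPM in Wisp2-leaning and 1187 and 1625 CPM in Fmod-leaning cells (1.76 ± 0.24, adjusted p = 6.5e-05). Hsd11b1, which regenerates active glucocorticoid, was at 124 and 110 CPM and 471 and 353 CPM (1.83 ± 0.19, adjusted p = 3.64e-07). Gdf10, a BMP-family ligand, was at 361 and 296 CPM and 951 and 856 CPM (1.53 ± 0.22, adjusted p = 0.000168), and the orphan receptor Nr2f2 at 180 and 145 CPM and 501 and 311 CPM (1.30 ± 0.19, adjusted p = 0.000172). Fmod-leaning sums of these 4 lay above both Wisp2-leaning sums. Cdh11, the mesenchymal cadherin, differed by 2.41 ± 0.39, Col1a1 by 0.96 ± 0.20, Lum by 0.88 ± 0.22 and Pdgfra, a general fibroblast receptor, by 0.80 ± 0.18. Without library 2 the calls of Cdh11, Col1a1, Lum and Pdgfra were lost (adjusted p = 0.412, 0.106, 0.32 and 0.108), as were those of Col1a1, Lum and Pdgfra without library 1 (0.29, 0.781 and 0.56). Calls were also lost with DESeq2 (adjusted p = 0.0974 for Col1a1, 0.575 for Lum and 0.0823 for Pdgfra), without the library block (0.337 for Col1a1, 0.784 for Lum and 0.237 for Pdgfra) and after thinning (0.118 for Nr2f2 and 0.172 for Cdh11).

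**Figure D5:**
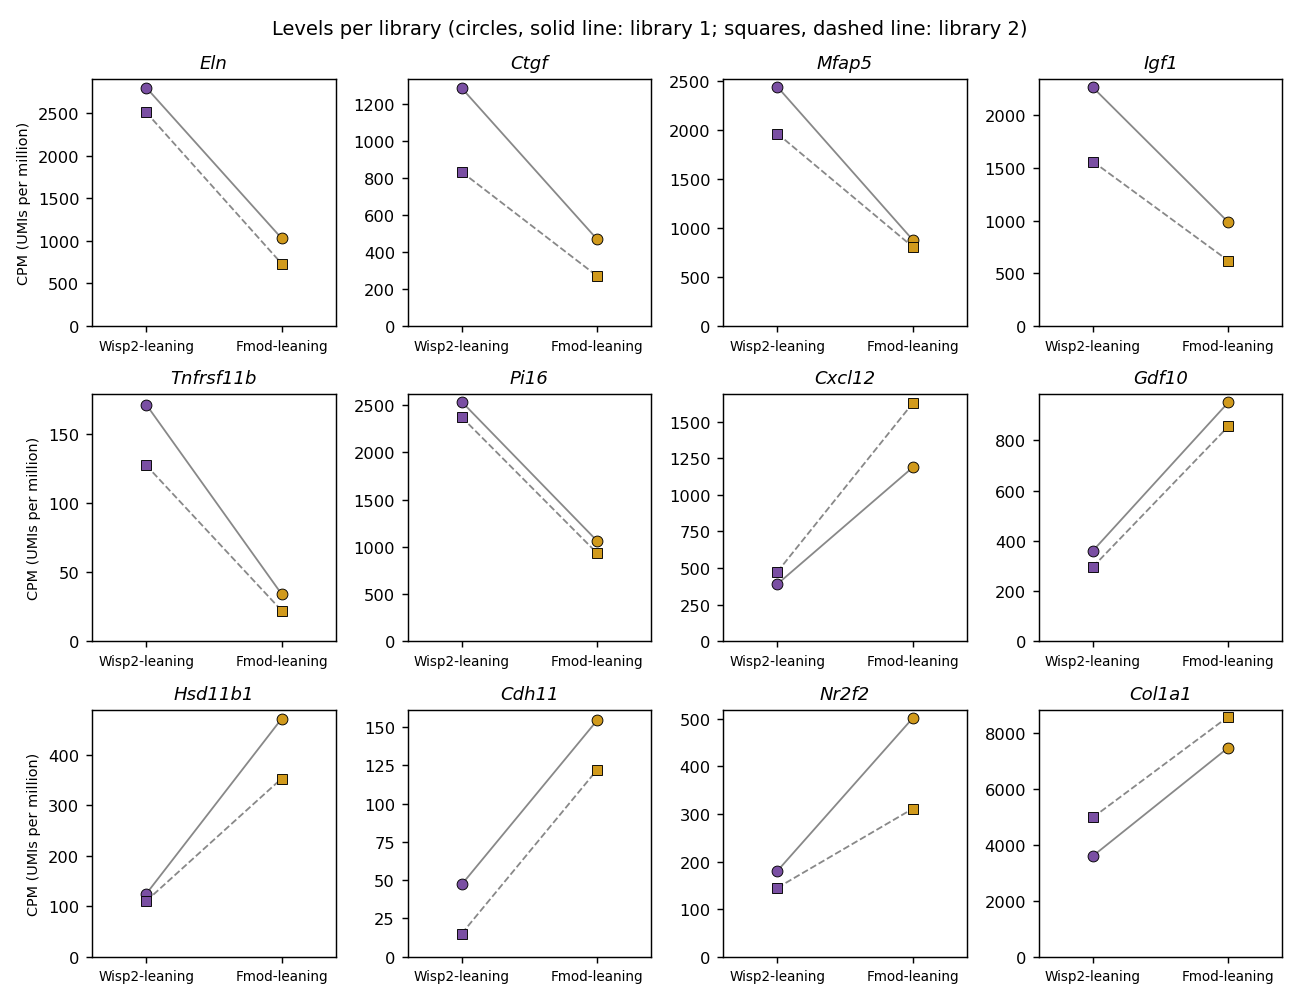
CPM of 12 genes in Wisp2-leaning and Fmod-leaning cells, 1 point per library joined by a line. Eln, Ctgf, Mfap5, Igf1, Tnfrsf11b and Pi16 fall from left to right in both libraries, and Cxcl12, Gdf10, Hsd11b1, Cdh11, Nr2f2 and Col1a1 climb.

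The classes were also made from each gene alone, which ended 13 calls of named genes with Wisp2 alone and 25 with Fmod alone. The low class was then every cell without a UMI of that gene: 163 and 401 cells for Wisp2, 191 and 326 for Fmod. With Fmod alone edgeR's test no longer called C1qtnf3 (adjusted p = 0.49), Col12a1 (0.149), Mfap4 (0.121), Igfbp5 (0.303), Igf1 (0.928), Cd248 (0.088) or Anxa3 (0.959). Wisp2 alone kept the calls of all of these. With classes from Wisp2 alone and from Fmod alone, Angptl7 differed by 3.74 and 2.23, Figf by 2.51 and 2.48, Sfrp2 by 2.08 and 1.85, Svep1 by 1.73 and 1.29 and Lox by 1.33 and 0.97, all called both ways. Eln differed by 1.67 with Wisp2 alone and 0.53 with Fmod alone (adjusted p = 0.491), and Ctgf by 1.10 and 0.10 (0.975). Sfrp4 differed by 1.28 and 0.22 (0.92). Thbs2 went the other way, by 0.78 with Wisp2 alone (0.217) and 1.98 with Fmod alone, as did Smoc2, a calcium-binding matrix protein, by 0.51 (0.666) and 1.16. With classes from both genes, Smoc2 lost its call with DESeq2 (adjusted p = 0.512) and without library 2 (log2 difference 1.02). In edgeR's test it was also lost without the library block (0.162) and without cells rich in other types' markers (0.0747). The 1-gene classes share cells, so the gap between Wisp2 alone and Fmod alone was not tested. Between leaning cells Sfrp2 differed by -0.42 ± 0.28 and Figf by -0.05 ± 0.34, with adjusted p of 0.845 and 1.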

How the data were processed

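UMI counts per gene and cell were deposited by the authors as raw counts for 16971 genes and 5451 cells, and the submitters' processing notes name Cell Ranger 2.1. The build, annotation and cell filters are not given in the sources used here. Population names per cell were taken as deposited. Members and gene lists were chosen with earlier results of these data known. The 2 libraries were told apart by the number ending each barcode.

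UMIs were summed per library and class, and 1 fit over all populations with at least 10 cells (24 sums, residual degrees of freedom 11, dispersion 0.0137 and 0.0134) used edgeR 4.0.16 (R 4.3.3): TMM, filterByExpr, quasi-likelihood test, library as a block, Benjamini-Hochberg over all genes tested, n = 2 libraries. The block pairs sums of the same library. Standard errors are the size of the log2 value over the square root of F. Library folds used a prior count of 2. Named were the 12 largest called log2 differences in each direction with at least 50 UMIs and 1 direction in both libraries, up to 4 members per list and fixed genes; Ctgf, Loxl1, Anxa3, Sfrp4, Fbln5, Igf1, Sfrp2 and Figf (the last 4 between leaning cells) were chosen after their values were seen. Some genes that the rule names are not reported here.

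Alternatives were RLE factors, DESeq2 1.42.0, no filter, no block, only Fibro 1 in the fit, 1 library at a time, doublets left out (Scrublet in scanpy 1.11.5; 46 and 34 cells), thinning, depth-matched classes, other percentiles, 1-gene classes, split UMIs and cells rich in other types' markers. Leaving out shared barcodes, haemoglobin-rich or Cytl1-rich cells and recounting without Cytl1 and Flt1 were added after seeing the data. On simulated counts 59% of 2-fold and 97% of 4-fold changes were recovered for high against low cells (14 of 10323 unchanged genes called), and 50% and 99% for leaning cells (8 of 9758). The changes were put only into genes with at least 50 UMIs in the 2 classes, and counts were drawn at the fit's own dispersions.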

Additional observations from a re-analysis of the deposited data

How the results depend on the processing

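The 111 higher and 54 lower genes of high cells became 57 and 20 with DESeq2, 173 and 123 with no filter on low counts, 38 and 17 with no replicate block, 259 and 174 with only Fibro 1 classes in the fit, and 172 and 92 for the 80th against the 20th percentile. They became 58 and 19 without cells rich in other types' markers and 67 and 21 without Cytl1-rich cells, the latter chosen after seeing the data. Leaving out 1 library gave 28 to 83 higher and 11 to 44 lower genes, and leaving out doublets 83 lower ones. The other settings stayed within 1.5 times the count. The 43 higher and 31 lower genes of Fmod-leaning cells became 24 higher with DESeq2, 95 and 65 with no filter, 17 and 12 with no replicate block, 152 and 108 with only Fibro 1 classes, 18 and 20 after thinning, and 11 to 23 and 10 to 13 with 1 library left out. The block pairs sums of the same library, and dropping it kept only genes called with it. A lone library is assumed to vary like the other populations.

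For the named genes 1127 of the alternative values for high against low cells stayed on their side of the threshold, 47 gained a call and 169 lost it, and 374, 6 and 116 did so for leaning cells. Among called genes the exceptions in direction were Tgfb1 (-1.83 without library 1 and 0.0665 without library 2) and Spp1 (0.35 without cells rich in other types' markers). Another 15 values of 10 genes, and 2 of 2 genes for leaning cells, changed sign without a call in either setting. DESeq2 gave 17 and 3 named genes no adjusted p, and these are not counted as lost. The cause of these changes was not tested. With 2 libraries, 59% of simulated 2-fold changes were recovered in high against low cells. They were put only into genes with at least 50 UMIs, and recovery by UMI count was not tested.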
